A study of Mus musculus with 6 samples.

Results

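Tubulin mRNA was compared between livers of Mettl3-deficient mice and livers of wild-type mice by RNA-seq. The genes described are 10 tubulin genes of 27179 genes counted, 5 that encode alpha tubulins (Tuba1a, Tuba1b, Tuba1c, Tuba4a and Tuba8) and 5 that encode beta tubulins (Tubb2a, Tubb4a, Tubb4b, Tubb5 and Tubb6). They were chosen from the alpha and beta tubulin families with the counts of both genotypes already known. Their difference between genotypes is therefore given as a description, with no test of its own. Tuba3a, Tuba3b, Tubal3, Tubb1, Tubb2b and Tubb3, of the same families, are not among the 10 and had too few counts to be tested. There were 3 Mettl3-deficient and 3 wild-type livers, all from C57BL/6 mice. Mettl3 is the methyltransferase that places N6-methyladenosine on mRNA. The labels do not give how it was made deficient, or the age and sex of the mice. They also do not say whether each liver came from a separate animal, so p-values reflect only how these 6 samples vary.

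Alpha and beta tubulin pair into the dimers from which microtubules grow. Vertebrates carry several genes for each, called isotypes, whose proteins are alike over most of their length and differ mainly in the acidic tail at the end. In hepatocytes, microtubules carry secretory vesicles and endosomes, position organelles and build the spindle of dividing cells. Tubulin mRNA is also controlled by its own product: when free dimers are in excess, the factor TTC5 recognises the first residues of a tubulin chain as it leaves the ribosome and the mRNA is degraded. Tubulin folding needs the chaperones prefoldin and CCT and then a set of tubulin cofactors.

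The start of the coding sequence is shown because the first residues are what the degradation factor reads. The first 24 coding bases from the start codon, from GENCODE release M21 transcripts on GRCm38, are given with codons 2 to 4 in capitals, for the genes other than Tubb6.
Tuba1a: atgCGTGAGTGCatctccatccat
Tuba1b: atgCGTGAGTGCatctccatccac
Tuba1c: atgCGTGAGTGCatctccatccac
Tuba4a: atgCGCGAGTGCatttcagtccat
Tuba8: atgAGGGAATGCatatcggtccat
Tubb2a: atgCGCGAGATCgtgcacatccag
Tubb4a: atgCGGGAAATCgtgcacctgcaa
Tubb4b: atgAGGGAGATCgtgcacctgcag
Tubb5: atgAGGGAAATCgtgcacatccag
The alpha genes share the TGC codon at position 4 and the beta genes the ATC codon. Codons 2 and 3 differ between genes only in synonymous arginine and glutamate codons, and Tuba1a, Tuba1b and Tuba1c have the same 9 bases there.

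How alike the genes are bears on how far each count can be trusted. Coding bases of Tuba1a and Tuba1b were 98.3% identical, those of Tuba1b and Tuba1c 97.9%, while Tuba8 matched the other alpha genes at 78.8% to 80.8%. Between the beta genes identity was 80.2% to 84.5%. Of the windows of 100 bases along the transcript, 69.5% in Tuba1b, 65.1% in Tuba1a and 53.4% in Tuba1c also occurred, letter for letter, in a transcript of another gene. In Tubb2a 36.9% of windows were shared, nearly all with Tubb2b, and in Tubb4b 29.2%, mostly with the pseudogene Tubb4b-ps1. Tuba4a, Tuba8, Tubb4a, Tubb5 and Tubb6 shared 0% of their windows. With windows of 50 bases the shares were 73.8% in Tuba1b, 72.9% in Tuba1a, 61.0% in Tuba1c, 50.9% in Tubb4b and 49.6% in Tubb2a, and at most 1.11% in the other five genes. Read length and the treatment of reads with several matches are unknown here, so levels of Tuba1a, Tuba1b, Tuba1c, Tubb2a and Tubb4b are uncertain. Exact matches miss near-identical stretches. The shares also fell from windows of 50 to windows of 100 bases, so they do not fix how many reads could be misplaced.

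Libraries held 34576824, 36025772 and 35263636 counts in Mettl3-deficient livers and 31960205, 34297553 and 32212085 counts in wild-type livers. Levels are CPM (counts scaled to library size after TMM scaling, which corrects for library composition). Mettl3 averaged 5.83 ± 0.836 CPM in Mettl3-deficient livers and 13.2 ± 1.09 CPM in wild-type livers (SD, n = 3 each), with a log2 fold change of -1.18 ± 0.20 (SE) and an edgeR adjusted p of 0.00797. Alb, the hepatocyte marker albumin, was abundant in every library, which fits the labelled tissue, at 44710 ± 11192 CPM in Mettl3-deficient livers and 129620 ± 18198 CPM in wild-type livers. Y-linked transcripts had 4747, 5031 and 0 counts in Mettl3-deficient replicates 1, 2 and 3, against 6508, 0 and 0 counts in wild-type replicates 1, 2 and 3. Each group thus held livers of more than 1 animal, and whether all 3 came from separate animals is not given. By a chi-square per degree of freedom on counts, wild-type replicates 2 and 3 differed by 16.2. Each differed from wild-type replicate 1 by 288 and 282, and Mettl3-deficient pairs differed by 85 to 231. Wild-type replicates 2 and 3 were thus much closer than any other pair within a group.

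All 10 tubulin genes had a log2 fold change above 0 in Mettl3-deficient livers, by edgeR with TMM scaling and also after leaving out any 1 of the 6 libraries. In 8 of the 10 every Mettl3-deficient library lay above every wild-type library, and in Tuba1c and Tuba4a the groups overlapped. Tuba1a and Tubb4a, which are among the 8, passed the filter on low counts only through their Mettl3-deficient libraries. Their direction was therefore favoured in advance. Of all 14380 tested genes, 23.9% were higher and 21.9% lower without overlap. By edgeR's adjusted p under 0.05 over all tested genes, 6 of the 10 were called higher and 0 lower, where 13.3% of all tested genes were called higher. Nothing is read from these counts, since the same contrast was known when the genes were picked. In bulk tissue, more cells of a type and more RNA per cell cannot be told apart. The median log2 fold change of the 10 was 1.73, against 0.01 over all tested genes.

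**Figure D1:**
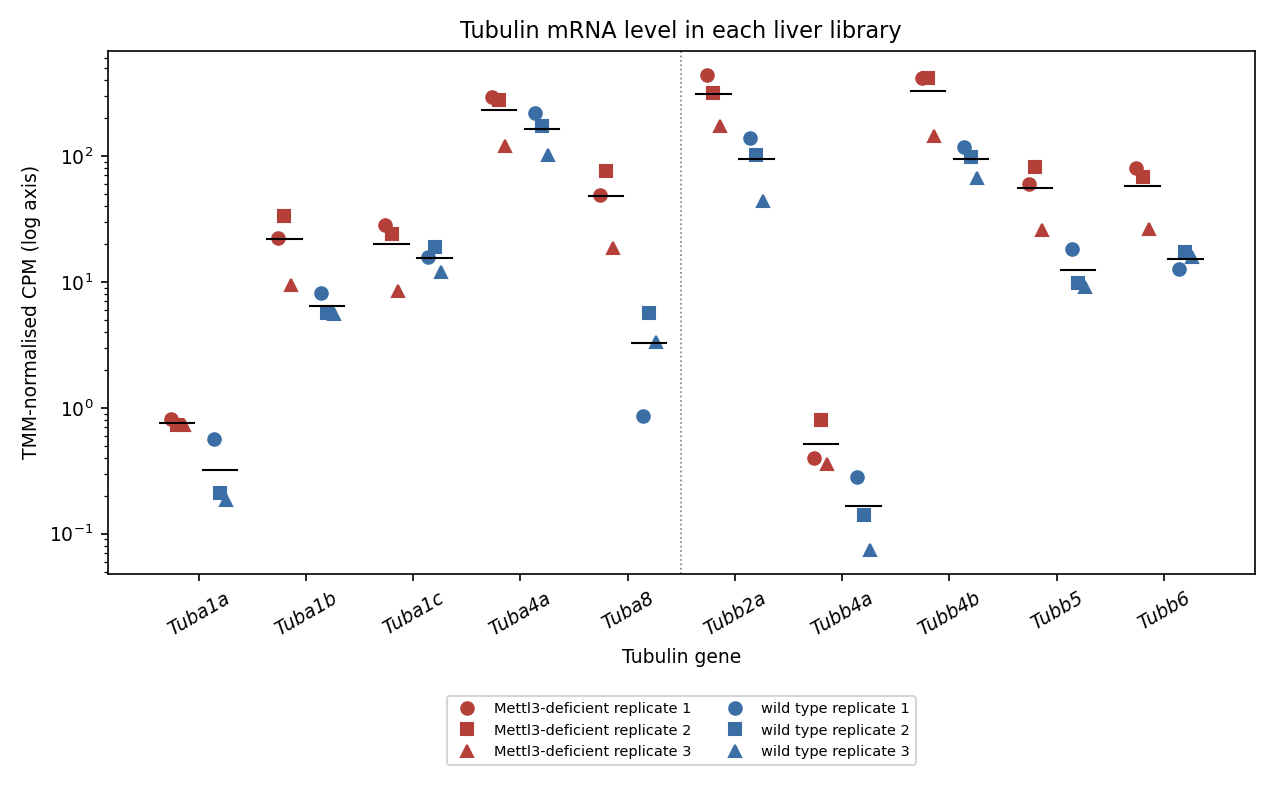
TMM-normalised CPM (log axis) of each tubulin gene in the 3 Mettl3-deficient libraries (red, left) and the 3 wild-type libraries (blue, right), with the alpha genes left of the dotted line. Black bars are group means. Mettl3-deficient replicate 3 (red triangle) is the lowest of its group in 9 of the 10 genes, and the groups overlap in Tuba1c and Tuba4a.

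Tuba8, an alpha isotype that diverges from the others (Entrez 53857, GRCm38 chromosome 6, 121210734 to 121226098, plus strand), had the largest fold change of the 10. Its level was 48.7, 75.9 and 18.4 CPM in Mettl3-deficient replicates 1, 2 and 3, against 0.852, 5.62 and 3.33 CPM in wild-type replicates 1, 2 and 3. Every Mettl3-deficient library was at least 3.27 times the highest wild-type library. The means were 47.7 ± 28.8 CPM in Mettl3-deficient livers and 3.27 ± 2.39 CPM in wild-type livers (SD, n = 3 each), a log2 fold change of 3.87 ± 0.79 (SE) that was larger than that of 99.2% of all tested genes. The spread within each group was wide, 4.13-fold between the lowest and highest Mettl3-deficient library and 6.60-fold between the lowest and highest wild-type library. Wild-type replicate 1, the library of its group with Y-linked counts, held the lowest value, with 24 counts. The ratio of mean CPM was 73.1 among libraries with Y-linked counts and 4.11 among those without.

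Tuba1b, a broadly expressed alpha isotype (Entrez 22143, chromosome 15, 98931429 to 98934390, minus strand), was also higher in every Mettl3-deficient library. It had 22.4, 33.4 and 9.5 CPM in Mettl3-deficient replicates 1, 2 and 3 and 8.13, 5.62 and 5.54 CPM in wild-type replicates 1, 2 and 3. The log2 fold change was 1.76 ± 0.43 (SE), and replicate 3 of the Mettl3-deficient group stood only 1.17 times above the highest wild-type library. Tuba1a, the isotype best known from developing neurons (Entrez 22142, chromosome 15, 98949847 to 98953501, minus strand), was scarce. It had 33, 33 and 29 counts (0.819, 0.731 and 0.735 CPM) in Mettl3-deficient replicates 1, 2 and 3 and 16, 6 and 5 counts (0.568, 0.212 and 0.185 CPM) in wild-type replicates 1, 2 and 3, with a log2 fold change of 1.23 ± 0.56 (SE).

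The other two alpha genes differed less. Tuba4a, the most abundant alpha gene in both groups per kilobase of exon (Entrez 22145, chromosome 1, 75214972 to 75221261, minus strand), had 291, 278 and 119 CPM in Mettl3-deficient replicates 1, 2 and 3 and 220, 173 and 101 CPM in wild-type replicates 1, 2 and 3. Replicates 1 and 2 of the Mettl3-deficient group lay above all wild-type libraries and replicate 3 lay inside their range. The log2 fold change of Tuba4a was 0.48 ± 0.40 (SE). Tuba1c, next to Tuba1a and Tuba1b on chromosome 15 but on the plus strand (Entrez 22146, 99029891 to 99038105), had 28.2, 23.8 and 8.38 CPM in Mettl3-deficient replicates 1, 2 and 3 and 15.6, 18.8 and 11.9 CPM in wild-type replicates 1, 2 and 3. Here replicate 3 of the Mettl3-deficient group was the lowest of all 6 libraries, and the log2 fold change was 0.38 ± 0.41 (SE), or -0.064 with a term for libraries with Y-linked counts. Tuba4a overlaps the protein-coding gene Stk16 by 635 bases, and the whole of Tuba1b lies within the long noncoding RNA gene Gm41396. Whether the counting used strand is not given, so reads in the shared stretches cannot be assigned.

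Among the beta genes, every one lay above the wild-type range in all 3 Mettl3-deficient libraries. Tubb2a (Entrez 22151, chromosome 13, 34074278 to 34078008, minus strand) and Tubb4b (Entrez 227613, chromosome 2, 25222158 to 25224702, minus strand) were the most abundant. Tubb2a had 443, 313 and 173 CPM in Mettl3-deficient replicates 1, 2 and 3 and 139, 102 and 43.7 CPM in wild-type replicates 1, 2 and 3, with a log2 fold change of 1.71 ± 0.48 (SE). Tubb4b had 413, 419 and 144 CPM in Mettl3-deficient replicates 1, 2 and 3 and 117, 98.1 and 66.6 CPM in wild-type replicates 1, 2 and 3, with a log2 fold change of 1.79 ± 0.42 (SE). In both genes the lowest Mettl3-deficient library stood just above the highest wild-type library, 1.25 times for Tubb2a and 1.23 times for Tubb4b.

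Tubb5 and Tubb6 were less abundant and had larger fold changes. Tubb5, a beta isotype found in most tissues (Entrez 22154, chromosome 17, 35833920 to 35838301, minus strand), had 59.9, 82.3 and 25.9 CPM in Mettl3-deficient replicates 1, 2 and 3 and 18.1, 9.80 and 9.13 CPM in wild-type replicates 1, 2 and 3. Its log2 fold change was 2.18 ± 0.46 (SE). Tubb6, a divergent beta isotype (Entrez 67951, chromosome 18, 67390731 to 67402749, plus strand), had 79.9, 68.0 and 26.4 CPM in Mettl3-deficient replicates 1, 2 and 3 and 12.6, 17.2 and 15.7 CPM in wild-type replicates 1, 2 and 3. The wild-type values of Tubb6 were close together, within 1.37-fold, and its log2 fold change was 1.94 ± 0.38 (SE). Tubb6 was the only one of the 10 genes called in all 6 fits that left out 1 library.

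Tubb4a, a beta isotype best known from the brain (Entrez 22153, chromosome 17, 57080061 to 57087600, minus strand), was near the limit of detection. It had 16, 36 and 14 counts in Mettl3-deficient replicates 1, 2 and 3 and 8, 4 and 2 counts in wild-type replicates 1, 2 and 3. The log2 fold change was 1.61 ± 0.68 (SE).

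**Figure D2:**
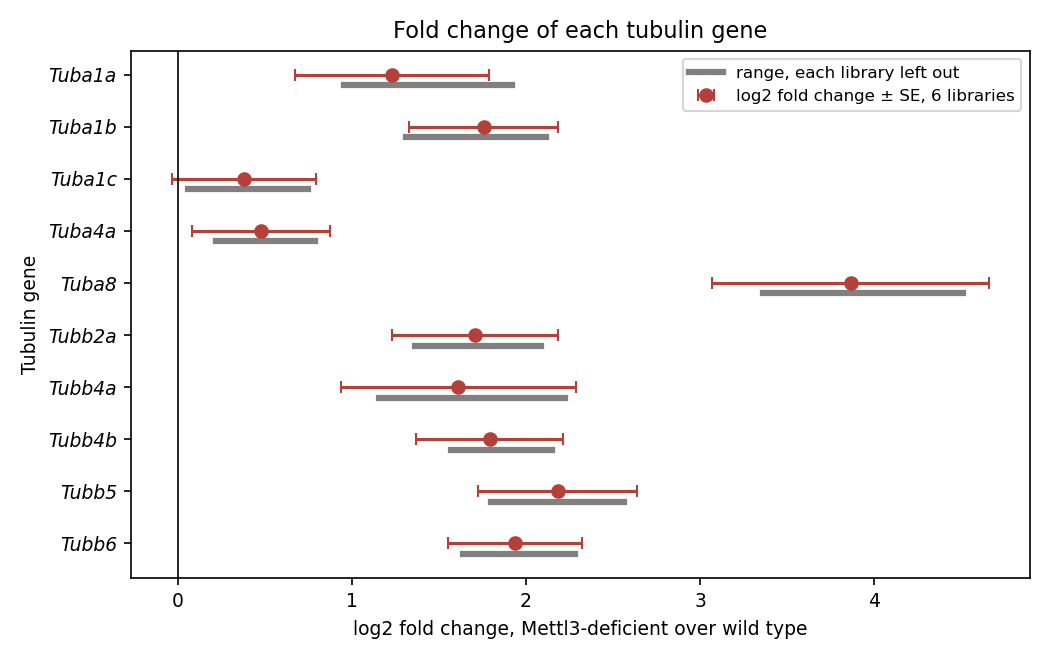
Log2 fold change of each tubulin gene, Mettl3-deficient over wild type, with its SE (red) and the range over the 6 fits that each left out 1 library (grey). Tuba8 lies farthest to the right at 3.87, Tuba4a and Tuba1c lie nearest 0 at 0.48 and 0.38, and no grey bar crosses 0.

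The libraries of a group differed from each other in step across the genes. Mettl3-deficient replicate 3 was the lowest of its group in 9 of the 10 genes, and wild-type replicate 3 was the lowest of its group in 8. Fewer tubulin genes were called higher when certain libraries were dropped, with all 10 fold changes still above 0. The count was 1 on dropping Mettl3-deficient replicate 1 and 2 on dropping Mettl3-deficient replicate 2, and it was 2 and 1 on dropping wild-type replicates 2 and 3. It was 7 without wild-type replicate 1 or without Mettl3-deficient replicate 3. Calls over the whole table moved in the same fits. With all 6 libraries 1906 genes were called higher. This was 864 and 1117 on dropping Mettl3-deficient replicates 1 and 2, and 840 and 927 on dropping wild-type replicates 2 and 3. Without wild-type replicate 1 it was 1932, and without Mettl3-deficient replicate 3 it was 1922. Mettl3-deficient replicate 3 is also the library of its group without Y-linked counts. Within libraries with Y-linked counts (Mettl3-deficient replicates 1 and 2 against wild-type replicate 1) all 10 genes had a ratio of means above 1. Within those without (Mettl3-deficient replicate 3 against wild-type replicates 2 and 3) 8 did, and Tuba1c and Tuba4a had ratios of 0.545 and 0.869. Each of these classes has 1 library in one of its groups, so no test was made within them.

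Per kilobase of exon, the 5 alpha genes summed to 125, 137 and 49.5 CPM per kb in Mettl3-deficient replicates 1, 2 and 3 and to 71.2, 60.7 and 37.2 CPM per kb in wild-type replicates 1, 2 and 3. The alpha sums overlapped between groups, with means of 104 ± 47.4 CPM per kb in Mettl3-deficient livers and 56.3 ± 17.4 CPM per kb in wild-type livers (SD, n = 3 each), a ratio of 1.84. The 5 beta genes summed to 524, 448 and 195 CPM per kb in Mettl3-deficient replicates 1, 2 and 3 and to 153, 120 and 68.2 CPM per kb in wild-type replicates 1, 2 and 3. These sums did not overlap, and their means of 389 ± 172 CPM per kb in Mettl3-deficient livers and 114 ± 42.7 CPM per kb in wild-type livers gave a ratio of 3.42. Beta over alpha was 4.19, 3.27 and 3.94 in Mettl3-deficient replicates 1, 2 and 3, against 2.15, 1.98 and 1.84 in wild-type replicates 1, 2 and 3, again with no overlap. Among libraries without Y-linked counts the ratio of alpha sums was 1.01 and that of beta sums 2.07.

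Within the alpha family the make-up differed between genotypes. Tuba8 held 17.2%, 24.5% and 16.4% of the alpha sum in Mettl3-deficient replicates 1, 2 and 3, against 0.529%, 4.10% and 3.96% in wild-type replicates 1, 2 and 3. The share of Tuba4a was 63.0%, 54.7% and 65.1% in Mettl3-deficient replicates 1, 2 and 3 and 83.3%, 77.2% and 73.8% in wild-type replicates 1, 2 and 3. Neither share overlapped between groups, and the mean share of Tuba8 was higher by 16.5 percentage points in Mettl3-deficient livers while that of Tuba4a differed by -17.2 points. Tuba1b held 10.9 ± 1.81% in Mettl3-deficient livers and 6.33 ± 1.52% in wild-type livers (SD, n = 3 each), with no overlap. With levels taken per kilobase of windows found in no other gene, the mean shares were 12.1% for Tuba8, 49.5% for Tuba4a and 24.5% for Tuba1b in Mettl3-deficient livers, against 1.80%, 63.9% and 14.3% in wild-type livers.

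In the beta family the mean shares differed between genotypes by less than the SD of either group, except that of Tubb5. Its difference was 0.972 percentage points, above the wild-type SD and below the Mettl3-deficient SD. Tubb2a held 50.3 ± 6.14% of the beta sum in Mettl3-deficient livers and 49.6 ± 8.69% in wild-type livers, and Tubb4b held 39.3 ± 4.93% in Mettl3-deficient livers and 40.8 ± 5.27% in wild-type livers (SD, n = 3 each). Tubb6 and Tubb5 held 6.01 ± 0.394% and 4.31 ± 1.08% in Mettl3-deficient livers, against 6.23 ± 3.04% and 3.34 ± 0.809% in wild-type livers. The share of each of the 5 beta genes overlapped between the groups.

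**Figure D3:**
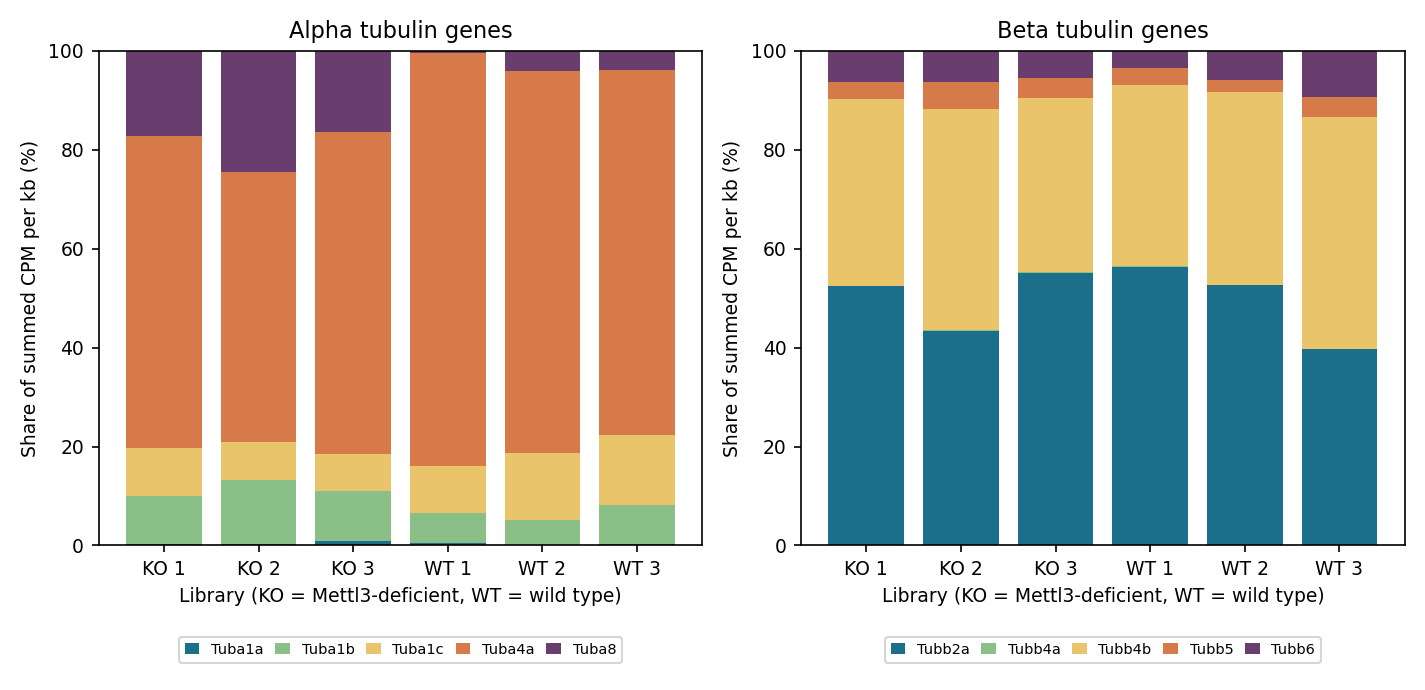
Share of each gene in the summed CPM per kilobase of its family (percent), for the 3 Mettl3-deficient (left) and the 3 wild-type libraries of each panel. Tuba8 takes 16.4% to 24.5% of the alpha sum in Mettl3-deficient libraries and at most 4.10% in wild-type libraries, while every beta share overlaps between the groups.

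Promoters were examined because 8 of the genes were higher in every Mettl3-deficient library. The RefSeq table holds promoter windows on GRCm38.p6, from 250 bases before to 50 after the start, for 9 of the 10 genes. CCAAT, the box bound by NF-Y, occurred on either strand in 4 of the 9 (Tuba1a, Tuba1c, Tubb4b and Tubb5), against 37.4% of all 32817 windows. GGGCGG, the GC box, occurred in 6 of 9 (Tuba1a, Tuba1b, Tuba4a, Tubb2a, Tubb4b and Tubb5) against 35.6% of windows. TATAAA occurred in 2 of 9 (Tubb2a and Tubb4b) against 13.6%. TGACNNNGC, the core of the antioxidant response element, occurred in 3 of 9 (Tuba1a, Tuba1c and Tubb4a) against 12.4%. Of those 3 genes, Tuba1a and Tubb4a were higher in every Mettl3-deficient library but not called, at few counts. The groups overlapped in Tuba1c. The CArG box occurred in 0 of 9 against 1.63%. The CArG box (2 C, 6 A or T, 2 G) can share letters with CCAAT or TATAAA, and a match only describes the letters of a window. The windows of Tubb4b, with the most CCAAT boxes of the 9, of Tubb5 with 2 and of Tuba8 with none are shown with CCAAT in capitals, on the strand of the gene. They lie at chr2:25224653-25224952 (minus strand), chr17:35838252-35838551 (minus strand) and chr6:121210484-121210783 (plus strand).
Tubb4b: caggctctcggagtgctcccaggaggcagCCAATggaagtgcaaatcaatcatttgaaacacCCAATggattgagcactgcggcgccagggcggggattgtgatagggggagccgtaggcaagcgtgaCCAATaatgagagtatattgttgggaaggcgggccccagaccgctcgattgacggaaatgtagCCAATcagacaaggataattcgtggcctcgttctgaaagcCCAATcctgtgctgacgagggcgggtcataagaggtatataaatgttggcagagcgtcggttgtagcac
Tubb5: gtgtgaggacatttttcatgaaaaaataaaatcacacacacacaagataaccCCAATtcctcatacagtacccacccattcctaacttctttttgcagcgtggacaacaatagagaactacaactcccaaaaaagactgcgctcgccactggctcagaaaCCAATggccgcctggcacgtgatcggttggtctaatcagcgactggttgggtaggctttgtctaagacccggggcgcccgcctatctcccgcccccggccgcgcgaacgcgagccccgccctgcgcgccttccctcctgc
Tuba8: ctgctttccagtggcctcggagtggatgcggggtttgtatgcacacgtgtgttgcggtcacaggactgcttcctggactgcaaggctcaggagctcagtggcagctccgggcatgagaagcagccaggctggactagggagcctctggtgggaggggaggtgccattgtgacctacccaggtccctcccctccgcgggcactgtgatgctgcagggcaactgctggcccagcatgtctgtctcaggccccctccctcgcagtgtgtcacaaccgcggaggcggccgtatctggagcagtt
Tubb4b has 5 CCAAT boxes, which 0.271% of all windows reach, and they begin 221, 188, 122, 59 and 19 bases before the start. Tuba8, with the largest fold change, held none of the 5 motifs in this window.

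Of the other tubulin genes, most were absent or scarce. Tuba3a, Tuba3b and Tubal3 had 0 counts in all 6 libraries, which allows up to 0.0833 to 0.0939 CPM per library (before TMM scaling) by counting error alone. Tubb2b, a near-copy of Tubb2a, had 16, 1 and 28 counts in Mettl3-deficient replicates 1, 2 and 3 and 1, 2 and 0 in wild-type replicates 1, 2 and 3. Tubb1, the platelet isotype, and Tubb3, the neuronal isotype, had at most 6 counts in any library. Of the 4 other tubulins with enough counts, delta tubulin Tubd1, found at centrioles, fell to 2.53 ± 0.619 CPM in Mettl3-deficient livers, against 6.04 ± 0.771 CPM in wild-type livers (SD, n = 3 each, log2 fold change -1.25 ± 0.28, edgeR adjusted p = 0.0185). Its call was lost without wild-type replicate 2 and with library size alone. Gamma tubulin Tubg1, which seeds microtubules, averaged 27.1 ± 6.28 CPM in Mettl3-deficient livers and 32.9 ± 5.93 CPM in wild-type livers and was not called (log2 fold change -0.28, edgeR adjusted p = 0.368, or 0.21 with library size alone). Tubg2 and Tube1 were at or under 1.35 CPM in both group means and were not called.

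Genes that act on tubulin were taken from lists of their roles, and the share called over all tested genes (13.3% higher and 10.5% lower) stands beside each count. Of 14 CCT and prefoldin genes 0 were called higher and 1 lower (1 higher and 1 lower at an unadjusted p under 0.05, 0 and 1 by DESeq2), and their median log2 fold change was 0.03. The gene that fell was Pfdn6, a prefoldin subunit, at 24.1 ± 1.88 CPM in Mettl3-deficient livers and 38.0 ± 2.89 CPM in wild-type livers (SD, n = 3 each, edgeR adjusted p = 0.0167). Of 7 tubulin cofactor genes 1 rose and 0 fell. It was Tbcc, which acts in the last step of dimer assembly, at 35.5 ± 7.67 CPM in Mettl3-deficient livers and 14.5 ± 2.24 CPM in wild-type livers (log2 fold change 1.29 ± 0.20, edgeR adjusted p = 0.00687).

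Genes of the tubulin mRNA decay pathway were not called. Of 5 tested (Ttc5, Scaper, Cnot1, Cnot10 and Cnot11), edgeR called 0, with 1 lower at an unadjusted p under 0.05 and 1 lower by DESeq2. Ttc5, which reads the nascent chain, had 14.7, 14.6 and 14.4 CPM in Mettl3-deficient replicates 1, 2 and 3 and 16.3, 10.5 and 13.5 CPM in wild-type replicates 1, 2 and 3. Cnot1, the scaffold of the CCR4-NOT deadenylase, had 78.5, 66.2 and 81.6 CPM in Mettl3-deficient replicates 1, 2 and 3 and 97.1, 102 and 102 CPM in wild-type replicates 1, 2 and 3, without overlap, and did not pass the test (log2 fold change -0.41, edgeR adjusted p = 0.0806).

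Of 18 tubulin modification enzymes 3 rose and 1 fell. Ttll12, of the tubulin tyrosine ligase-like family, had 22.5, 33.2 and 16.3 CPM in Mettl3-deficient replicates 1, 2 and 3 and 8.52, 10.4 and 8.58 CPM in wild-type replicates 1, 2 and 3 (log2 fold change 1.39 ± 0.26, edgeR adjusted p = 0.0115). Svbp, the partner of the vasohibins that remove the final tyrosine, was at 15.5 ± 1.37 CPM in Mettl3-deficient livers and 8.53 ± 0.595 CPM in wild-type livers (edgeR adjusted p = 0.0119). The tubulin deacetylases Hdac6 and Sirt2 went opposite ways, Hdac6 at 29.6 ± 3.73 CPM in Mettl3-deficient livers and 20.3 ± 0.973 CPM in wild-type livers (edgeR adjusted p = 0.0368) and Sirt2 at 35.2 ± 4.59 CPM in Mettl3-deficient livers and 49.3 ± 1.87 CPM in wild-type livers (edgeR adjusted p = 0.0467). Neither of the deacetylase calls is firm. That of Hdac6 was lost on leaving out any 1 of the 6 libraries, and that of Sirt2 on leaving out any but Mettl3-deficient replicate 3.

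Of 19 nucleation genes 3 rose and 1 fell, with Haus8, an augmin subunit that branches spindle microtubules, at 12.7 ± 3.78 CPM in Mettl3-deficient livers and 3.29 ± 0.729 CPM in wild-type livers (SD, n = 3 each, edgeR adjusted p = 0.00612). Tubgcp6 of the gamma tubulin ring rose as well (log2 fold change 0.95 ± 0.17, edgeR adjusted p = 0.0103), as did the centrosome protein Cdk5rap2 (1.25 ± 0.29, edgeR adjusted p = 0.0204), and Mzt2, a small ring component, fell (-0.69 ± 0.18, edgeR adjusted p = 0.0291). Of 26 microtubule-associated protein genes 7 rose and 1 fell, with 20 fold changes above 0. Among the 7, Map9 passed the filter on low counts only with its Mettl3-deficient libraries, so its direction was favoured in advance. Clip2, which binds growing ends, was at 21.8 ± 2.71 CPM in Mettl3-deficient livers and 3.74 ± 0.366 CPM in wild-type livers (log2 fold change 2.54 ± 0.19, edgeR adjusted p = 0.000651). Map1s and the end-binding gene Mapre3 also rose (log2 fold changes 1.29 ± 0.21 and 0.73 ± 0.13, edgeR adjusted p = 0.00716 and 0.00898), and Eml3 fell (-0.52 ± 0.15, edgeR adjusted p = 0.0438). On dropping Mettl3-deficient replicate 1, 4 of these genes were called higher, and on dropping wild-type replicates 2 and 3, 3 and 4 were. Over all genes 864, 840 and 927 were called higher in those fits, against 1906 with all 6 libraries.

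Of 11 severing and depolymerising enzymes 3 rose and 1 fell. Fignl1, an ATPase related to the severing enzyme fidgetin and best known for its part in DNA recombination, was at 9.21 ± 3.69 CPM in Mettl3-deficient livers and 0.503 ± 0.354 CPM in wild-type livers (SD, n = 3 each, log2 fold change 4.19 ± 0.59, edgeR adjusted p = 0.00483). Kif2c, which depolymerises microtubules at mitosis, was at 5.22 ± 2.44 CPM in Mettl3-deficient livers and 0.527 ± 0.428 CPM in wild-type livers (edgeR adjusted p = 0.0169), Katnal1 was called higher (log2 fold change 0.90 ± 0.23, edgeR adjusted p = 0.0304), and Spast, which encodes the severing enzyme spastin, fell to 25.1 ± 2.38 CPM in Mettl3-deficient livers, against 40.9 ± 2.64 CPM in wild-type livers (edgeR adjusted p = 0.0138). Of 25 kinesin and dynein transport genes 5 rose and 3 fell. The dynein light chain Dynll1 was at 104 ± 31.3 CPM in Mettl3-deficient livers and 21.7 ± 4.47 CPM in wild-type livers (edgeR adjusted p = 0.00294, log2 fold change 2.25 ± 0.27). The kinesin-2 motors Kif3b and Kif3a rose (1.04 ± 0.22 and 1.11 ± 0.27, edgeR adjusted p = 0.0163 and 0.0245). The kinesin-1 genes Klc4, Kif5a and Klc1 fell, with log2 fold changes of -1.17 ± 0.29, -1.28 ± 0.34 and -0.57 ± 0.17 (edgeR adjusted p = 0.0246, 0.0318 and 0.0437). Kif5c, also of kinesin-1, was called higher from 6, 6 and 0 counts in wild-type replicates 1, 2 and 3 (log2 fold change 3.15 ± 0.85, edgeR adjusted p = 0.0339). Fignl1, Kif2c and Kif5c passed the filter on low counts only with their Mettl3-deficient libraries, so their direction was favoured in advance. Kif5b and Klc2 were not called (log2 fold changes -0.39 and 0.31). On dropping Mettl3-deficient replicate 1 or 2 or wild-type replicate 2 or 3, 0 transport genes were called lower. Over all genes 518, 742, 585 and 615 were called lower in those fits, against 1514 with all 6 libraries. Of 28 called genes named from the role lists, 12 kept their call whichever library was dropped (Tbcc, Ttll12, Haus8, Tubgcp6, Clip2, Map1s, Mapre3, Fignl1, Dynll1, Mcm2, Bub1b and Mcm4). The 28 include the proliferation list, but not Kif5c or genes named only for the filter on low counts. Nearly all were named for a small p in their list with all 6 libraries, which favours keeping a call. The share of all called genes that kept theirs was not counted, so nothing is read from this number.

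**Figure D4:**
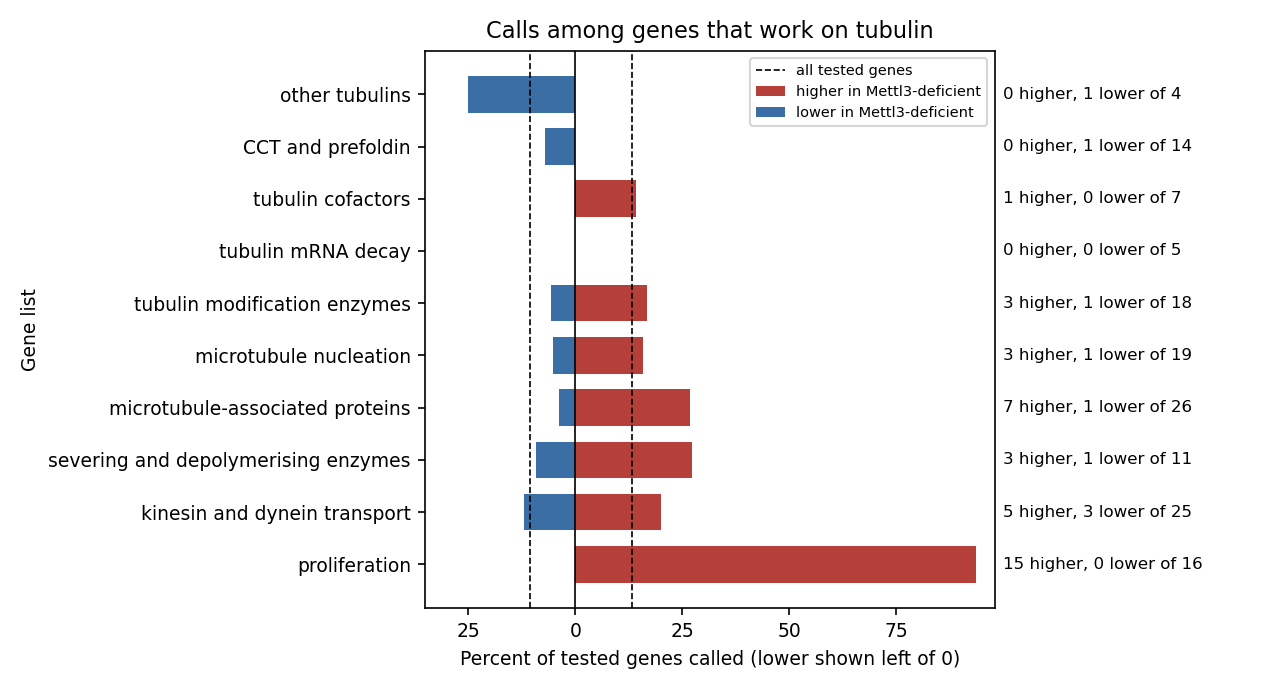
Percent of the tested genes of each list called higher (red, right of 0) or lower (blue, left of 0) in Mettl3-deficient livers by edgeR, with dashed lines at the percentages over all tested genes, 13.3% higher and 10.5% lower. The proliferation list stands out at 15 of 16 called higher, and the folding and decay lists hold at most 1 call. Some of the genes called higher passed the filter on low counts only with their Mettl3-deficient libraries.

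Tubulin is also used by dividing cells, and genes of proliferation were much higher. Of 16 such genes 15 rose and 0 fell, for example Mcm2, a replication licensing factor, at 18.2 ± 3.99 CPM in Mettl3-deficient livers and 1.99 ± 0.714 CPM in wild-type livers (SD, n = 3 each, edgeR adjusted p = 0.00145). Mcm4, of the same complex, and the spindle checkpoint kinase Bub1b rose as well (log2 fold changes 2.08 ± 0.28 and 3.10 ± 0.31, edgeR adjusted p = 0.00428 and 0.00146). Ccnb1, Ccnb2, Bub1, Plk1 and Tpx2, among the 15, and the uncalled Aurkb passed the filter on low counts only with their Mettl3-deficient libraries. The direction of these genes was therefore favoured in advance. The list rose in 7 to 15 of its genes across the fits that left out 1 library, with 7 without wild-type replicate 2. Over all genes 840 to 1932 were called higher across those fits, with 840 without wild-type replicate 2. The list summed to 245, 145 and 151 CPM in Mettl3-deficient replicates 1, 2 and 3, where the 10 tubulin genes summed to 1387, 1295 and 526 CPM. In wild-type replicates 1, 2 and 3 it summed to 13.9, 34.3 and 36.9 CPM, where the tubulin genes summed to 531, 431 and 258 CPM. Mettl3-deficient replicate 1 was the highest library in both sums, and the proliferation sums did not overlap between groups. Within groups the sums otherwise differed in order. Mettl3-deficient replicates 2 and 3 were close in proliferation (145 and 151 CPM) and far apart in tubulin (1295 and 526 CPM). Wild-type replicate 1 was the highest of its group in tubulin and the lowest in proliferation, and wild-type replicate 3 the reverse. The tubulin sums overlapped through Mettl3-deficient replicate 3, which lay just below wild-type replicate 1. Per kilobase of exon the sums of the 10 did not overlap. There Mettl3-deficient replicate 3 stood at 245 CPM per kb and wild-type replicate 1 at 224 CPM per kb.

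Marker genes of other liver cells moved to different degrees. Here rose and fell mean called by edgeR, where 13.3% of all tested genes were called higher and 10.5% lower. Of 8 macrophage markers 2 rose (Lyz2 and Cd68) and 0 fell, with sums of 403 to 730 CPM in Mettl3-deficient libraries and 135 to 424 CPM in wild-type libraries. All 8 macrophage markers had a log2 fold change above 0, with a median of 0.85. Of 8 cholangiocyte markers 2 rose (Tspan8 and Sox9) and 0 fell (3 higher at an unadjusted p under 0.05 and 3 by DESeq2), with sums of 97.8 to 260 CPM in Mettl3-deficient libraries and 107 to 126 CPM in wild-type libraries. Mettl3-deficient replicate 3, the lowest of its group in tubulin, had the highest cholangiocyte sum and the lowest macrophage sum of its group. Of 8 endothelial markers 0 rose and 1 fell (Lyve1, with 3 lower at an unadjusted p under 0.05 and 1 by DESeq2), and of 8 stellate and fibroblast markers 0 were called (0 at an unadjusted p under 0.05 and 0 by DESeq2), with sums of 328 to 646 CPM in Mettl3-deficient libraries and 397 to 437 CPM in wild-type libraries. T and NK cell markers summed to 4.28 to 5.29 CPM in Mettl3-deficient libraries and 1.21 to 2.86 CPM in wild-type libraries with 0 of 7 called (3 higher at an unadjusted p under 0.05, 1 by DESeq2). B cell markers summed to 4.67 to 7.20 CPM in Mettl3-deficient libraries and 3.50 to 4.76 CPM in wild-type libraries with 0 of 6 called (0 and 0 by the same looser counts). Neutrophil markers summed to 2.51 to 5.06 CPM in Mettl3-deficient libraries and 0.849 to 1.88 CPM in wild-type libraries with 1 of 2 called (S100a9, higher). Platelet markers summed to 5.54 to 6.88 CPM in Mettl3-deficient libraries and 6.18 to 8.91 CPM in wild-type libraries with 0 of 4 called (0 and 0 likewise). The neutrophil marker Ly6g was the only marker at 0 in all libraries. Of 8 hepatocyte markers 3 fell (Serpina1c, Fgb and Alb) and 0 rose by edgeR's adjusted p, with 7 lower at an unadjusted p under 0.05, 7 lower by DESeq2 and 7 lower without overlap, with sums of 47546 to 79685 CPM in Mettl3-deficient libraries and 148130 to 180930 CPM in wild-type libraries. The part of these cell types, and of proliferation, in the tubulin values was not tested.

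**Figure D5:**
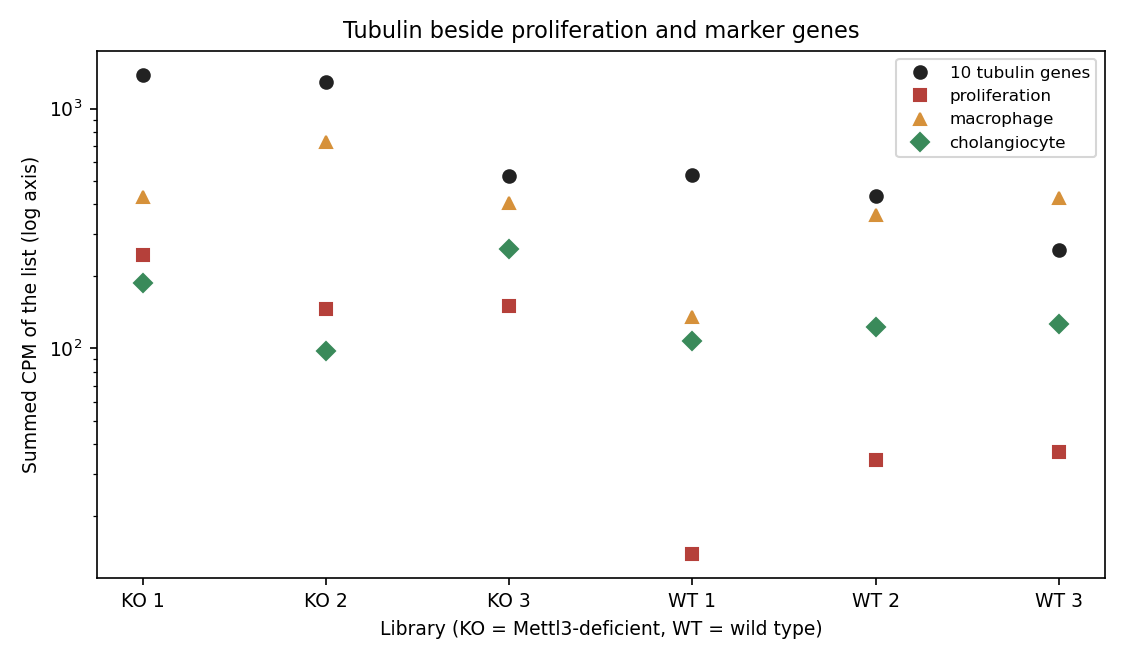
Summed CPM (log axis) in each library of the 10 tubulin genes, the 16 proliferation genes and the 8 macrophage and 8 cholangiocyte markers, with Mettl3-deficient libraries on the left. The proliferation sums are 145 to 245 CPM in Mettl3-deficient libraries and 13.9 to 36.9 CPM in wild-type libraries, and the tubulin sums 526 to 1387 CPM in Mettl3-deficient libraries and 258 to 531 CPM in wild-type libraries.

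Some genes outside the tubulin family had a similar profile over the libraries. Likeness was measured as the root mean square difference between centred log2 CPM of a gene and of the summed tubulins over the 6 libraries, among 9692 named genes with a mean of at least 5 CPM. Krt8, a keratin of hepatocytes and ducts, was closest at 0.191, with 907, 799 and 339 CPM in Mettl3-deficient replicates 1, 2 and 3 and 392, 259 and 228 CPM in wild-type replicates 1, 2 and 3. Lrrc59 (0.234), the cyclin-dependent kinase subunit Cks1b (0.235), cytoplasmic actin Actb (0.256) and Tbc1d25 (0.271) followed. Among the tubulin genes themselves Tubb4b was closest to the sum at 0.197, which it is part of, and Tuba8 farthest at 1.70.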

How the data were processed

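Per the labels' protocols, directional libraries were made from TRIzol-extracted liver RNA depleted of ribosomal RNA. Per the submitters' processing notes, HISAT2, featureCounts and mm10 were used. The authors deposited whole-number read counts for each gene without normalization. The Entrez identifiers were matched to RefSeq GRCm38.p6 symbols (25275 of 27179). The test used edgeR 4.0.16 (R 4.3.3, robust quasi-likelihood F test, two-sided, TMM, genotype as the only term), after filterByExpr with a minimum count of 10 and total of 15, with Benjamini-Hochberg adjustment over 14380 genes and a threshold of 0.05. SE came from the fold change and F. The code of the test was run on counts simulated from edgeR's own model, which does not check the calls in these data. Lengths and transcript windows came from GENCODE M21 on GRCm38. Alternatives were RLE factors, library size alone, no filter, a replicate block, a Y-linked term (libraries above 100 counts of Ddx3y, Eif2s3y, Kdm5d and Uty), DESeq2 1.42.0 and each library left out. Levels per unique window and ratios within Y-linked classes were added after seeing the data. The members, lists and tests were chosen with earlier results of these data known. Besides the members, the text names every other tubulin, Mettl3, and up to 3 called genes per list and direction by p. It also names the 5 genes with the most similar profile (unnamed gene models left out) and markers at the ends of their list. Called markers, Cnot1, Ttc5, Kif5b, Kif5c and Klc2 were chosen after their values were seen. So were genes named only for the filter on low counts and genes that overlap or share sequence with a member.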

Additional observations from a re-analysis of the deposited data

How the results depend on the processing

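With each library left out in turn, 1382 to 3514 genes were called over the whole table (840 to 1932 higher, 518 to 1582 lower), against 3420 (1906 and 1514) with all 6. Called tubulin members numbered 1 to 7, other tubulins lower 0 to 1, CCT and prefoldin genes 0 to 1 higher and 0 to 1 lower, modification enzymes 1 to 3 higher and 0 to 1 lower, nucleation genes lower 0 to 1, microtubule-associated protein genes 3 to 9 higher and 0 to 1 lower, severing enzymes 1 to 3 higher and 0 to 1 lower, transport genes 1 to 6 higher and 0 to 4 lower, and proliferation genes 7 to 15 higher. The log2 fold change of Tubg2 (0.11 with all libraries) ranged over -0.10 to 0.45, being -0.10 on dropping Mettl3-deficient replicate 2 and -0.048 and -0.026 on dropping wild-type replicates 1 and 3, and that of Tube1 (-0.39) over -0.79 to 0.30, the highest on dropping wild-type replicate 1.

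Scaling by library size alone applies no composition factor, and the median log2 fold change over all genes was then 0.49, against 0.01 with TMM. It called 5405 genes, 4810 higher and 595 lower (89.0% of calls higher, against 55.7% with TMM), put Tubg1 at 0.21 and Tube1 at 0.074, and called CCT and prefoldin genes 3 higher and 0 lower, cofactors 4 higher, decay genes 1 higher, modification enzymes 0 lower, nucleation genes 5 higher and 0 lower, microtubule-associated protein genes 15 higher and 0 lower, severing enzymes 5 higher and 0 lower, transport genes 12 higher and 0 lower, and other tubulins 0 lower. DESeq2 called 1 decay gene and 5 transport genes lower. Without a filter, 0 modification enzymes and 0 microtubule-associated protein genes were lower, as with the Y-linked term, under which 5 tubulin members were called (Tuba8 was not) and Tuba1c was at -0.064. The cause of these differences was not tested.

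Libraries without Y-linked counts gave log2 ratios of 0.018 for the alpha sum, 1.05 for the beta sum and 0.77 for all 10, against 0.88, 1.77 and 1.53 in all libraries. Replicate numbers are shared by the genotypes, but deviations of same-numbered libraries correlated at 0.0817, -0.0127 and 0.0441 across genes, so the numbers were not taken to pair the samples. The fit with a replicate block called 2683 genes and 6 tubulin members, with 0 modification enzymes and 0 microtubule-associated protein genes lower, 1 severing enzyme higher, 1 transport gene lower and 8 proliferation genes higher. Depth limits Tuba1a, Tubb4a and the scarce tubulins, whose counts are few.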
